A study of Mus musculus with 19 samples.

Results

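The interleukin-1 (IL-1) family and inflammasome genes described here were 10 genes, Il1a, Il1b, Il1rn, Il1r1, Il1r2, Il18, Il33, Nlrp3, Casp1 and Gsdmd, taken by gene name from the 54532 genes of a bulk RNA sequencing table of obstructed mouse kidneys. The study asked whether CD5L, a protein that macrophages secrete into the blood, changes kidney injury after unilateral ureteral obstruction (UUO), a surgical model of renal fibrosis. All 19 animals were male C57BL/6J mice of 8 to 9 weeks whose left ureter had been ligated and cut, and the obstructed kidney was taken whole after heparin perfusion on day 12. Wild-type (WT) mice and mice without Cd5l (CD5L KO) were injected into the peritoneum every day with recombinant CD5L protein (rCD5L, 0.5 mg per mouse and injection) or with the same volume of PBS. This gave 5 WT PBS, 5 WT rCD5L, 4 CD5L KO PBS and 5 CD5L KO rCD5L kidneys, each labelled as a separate biological replicate. No kidney without obstruction was analysed here, so all values describe differences among obstructed kidneys, and none describes the response to UUO itself.

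IL-1α and IL-1β signal through the same receptor, which recruits MyD88 and IRAK kinases and leads to NF-κB target genes, while a receptor antagonist and a decoy receptor hold this signal back. IL-1β and IL-18 are made as inactive precursors that caspase-1 cuts after a sensor such as NLRP3 has assembled an inflammasome, and the same protease opens gasdermin D, the pore of pyroptotic cell death. In the obstructed kidney these proteins are known from infiltrating myeloid cells and injured tubules, and RNA levels show neither cleavage nor release.

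The libraries held 17917491 to 23847090 counts each, with a median of 21762343. Cd5l had 0 counts in all 9 CD5L KO libraries, which allows up to 3 counts, and 3 to 15 counts in the WT libraries. Kidney markers (proximal tubule, distal nephron, endothelium) were present in every library. The library of CD5L KO rCD5L kidney 4 stood apart. Its position on the first principal component, which held 49.5% of the variance, was 109 against -21.1 to 17.6 in the other kidneys, its 10 proximal tubule markers summed to 21406 CPM against at most 3388 elsewhere, and its 10 macrophage markers summed to 771 CPM against at least 1923 elsewhere. Estimates of the rCD5L effect in CD5L KO mice are therefore given with and without it. CD5L KO rCD5L kidney 3 lay next, with a chi-square per degree of freedom of 86.1 to 104 against kidneys 1, 2 and 5 of its group, where every pair of libraries within a group that held neither kidney 3 nor kidney 4 had at most 28.9. A summed list of 6 epididymis markers was also found in every library, at a median of 12.8 CPM in CD5L KO PBS and 29.7 CPM in CD5L KO rCD5L kidneys and of 15.9 and 22.3 CPM in the corresponding WT groups, and its part in the results was not tested. CPM are counts relative to library size, scaled by trimmed mean of M values (TMM) over all 19 libraries.

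The promoters of both IL-1 ligands and of the antagonist are shown because Il1b had the largest estimate of the 10 genes and Il1rn one of the smallest for rCD5L in CD5L KO mice. The sequences are from RefSeq (build GRCm38.p6) and hold 250 bases before and 50 bases from the annotated start on, in the direction of the gene. Capitals mark matches, on either strand, to the TATA box TATAAA or the AP-1 site TGANTCA. Il1a and Il1b lie on the minus strand of chromosome 2 and Il1rn on the plus strand, with the first and the last of its annotated starts shown.
Il1b, chr2:129371090-129371389: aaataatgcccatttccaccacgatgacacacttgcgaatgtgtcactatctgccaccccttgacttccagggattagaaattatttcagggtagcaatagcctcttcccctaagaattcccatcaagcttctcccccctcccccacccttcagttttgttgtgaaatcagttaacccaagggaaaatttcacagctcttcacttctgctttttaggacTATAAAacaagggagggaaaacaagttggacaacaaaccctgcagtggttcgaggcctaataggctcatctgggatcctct
Il1a, chr2:129309923-129310222: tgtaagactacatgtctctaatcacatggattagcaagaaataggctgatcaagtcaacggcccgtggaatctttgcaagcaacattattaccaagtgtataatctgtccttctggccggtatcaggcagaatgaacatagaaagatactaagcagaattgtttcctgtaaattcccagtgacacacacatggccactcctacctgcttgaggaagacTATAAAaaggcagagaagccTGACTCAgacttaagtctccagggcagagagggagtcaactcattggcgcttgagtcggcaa
Il1rn first start, chr2:24336610-24336909: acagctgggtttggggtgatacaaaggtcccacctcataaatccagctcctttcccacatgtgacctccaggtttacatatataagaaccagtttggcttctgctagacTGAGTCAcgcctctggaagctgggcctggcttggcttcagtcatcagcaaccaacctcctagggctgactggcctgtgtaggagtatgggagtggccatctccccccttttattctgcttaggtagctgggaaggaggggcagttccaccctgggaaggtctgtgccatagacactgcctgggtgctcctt
Il1rn last start, chr2:24345121-24345420: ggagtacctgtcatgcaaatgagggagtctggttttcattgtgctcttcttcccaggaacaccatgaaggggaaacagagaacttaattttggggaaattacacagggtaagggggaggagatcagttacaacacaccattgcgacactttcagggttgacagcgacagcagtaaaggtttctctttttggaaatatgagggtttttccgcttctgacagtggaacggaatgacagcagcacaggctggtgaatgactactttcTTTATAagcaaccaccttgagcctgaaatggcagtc

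The Il1b promoter held a TATA box beginning 31 bases before the start, and the Il1a promoter held one beginning 32 bases before it together with an AP-1 site beginning 12 bases before it. The first Il1rn promoter held an AP-1 site 141 bases before the start and no TATA box, while the last one held TATAAA only on the opposite strand and behind the start. Across the 9 genes with a RefSeq promoter (14 promoters, some of them overlapping), 6 promoters held TATAAA, against 13.6% of the 32851 mouse promoters of this length, and 2 held TGANTCA, against 7.81% of them. The TATAAA count is of letters at any place in the window. Beside Il1a and Il1b, a start of Il33 had its match 29 bases before it. Those of Il18 and of another Il33 start lay 175 and 203 bases before, and that of Il1rn lay behind. The antioxidant response element core TGACNNNGC was found in 1 of the 14, behind a start of Nlrp3, against 12.4% of all promoters. The κB consensus was found in 2, of Il1r1 and of Nlrp3, against 8.46% of all promoters. These matches describe letters in these windows and were not measured as binding.

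None of the 10 genes passed the test in any comparison, and for every gene the compared groups overlapped. All 10 passed the filter on low counts each time. In CD5L KO against WT mice given PBS, 0 of 10 were called at an adjusted p under 0.05 (edgeR quasi-likelihood test, Benjamini-Hochberg over all genes), where 10.5% of 17579 genes tested were called. At an unadjusted p under 0.05 the count was 2 of 10, Il1r1 and Il1r2, against 26.6% of all genes, and groups that did not overlap were seen for 0 of 10 genes against 14.1% of all. In CD5L KO mice, rCD5L against PBS gave 0 of 10 calls against 0% of 17467 genes, with 1 of 10 (Il1b) at an unadjusted p under 0.05 against 2.87%. In WT mice, rCD5L against PBS gave 0 of 10 calls against 0% of 17455 genes, with 1 of 10 (Il1r2) at an unadjusted p under 0.05 against 16.0%. The test of whether the rCD5L effect differed between genotypes gave 0 of 10 calls against 0% of 18454 genes, with 0 of 10 at an unadjusted p under 0.05 against 6.25%. DESeq2 on the same counts and limma on FPKM also called 0 of 10 in each comparison, but DESeq2 gave no adjusted p for Il1a in CD5L KO against WT and for Il1a, Il1r2 and Il18 with rCD5L in WT. DESeq2 called 17.8% of all genes with an adjusted p in CD5L KO against WT and 3.82% with rCD5L in WT.

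The median log2 fold change of the 10 genes was -0.10 in CD5L KO against WT, with 6 of 10 estimates below 0, where that of all genes was -0.00 and 50.7% of all estimates were below 0. It was -0.21 for rCD5L in CD5L KO, with 8 of 10 estimates below 0, where the median of all genes was 0.02 and 46.5% of all estimates were below 0. Without CD5L KO rCD5L kidney 4 the median became -0.04 and 6 of 10 estimates were below 0, and without kidneys 3 and 4 it was 0.03 and 5 of 10 were. In WT mice rCD5L gave a median of 0.01, with 5 of 10 estimates below 0, where all genes had a median of 0.00 and 48.7% below 0. In the interaction the median was -0.18, with 7 of 10 estimates below 0, where 47.0% of all were. Without CD5L KO rCD5L kidney 4 that median was -0.06 and 6 of 10 were below 0, where 49.3% of all were. The biological coefficient of variation was 28.8% among the CD5L KO kidneys of the rCD5L comparison and 11.6% among the WT kidneys, and the intervals of the former were wider.

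**Figure D1:**
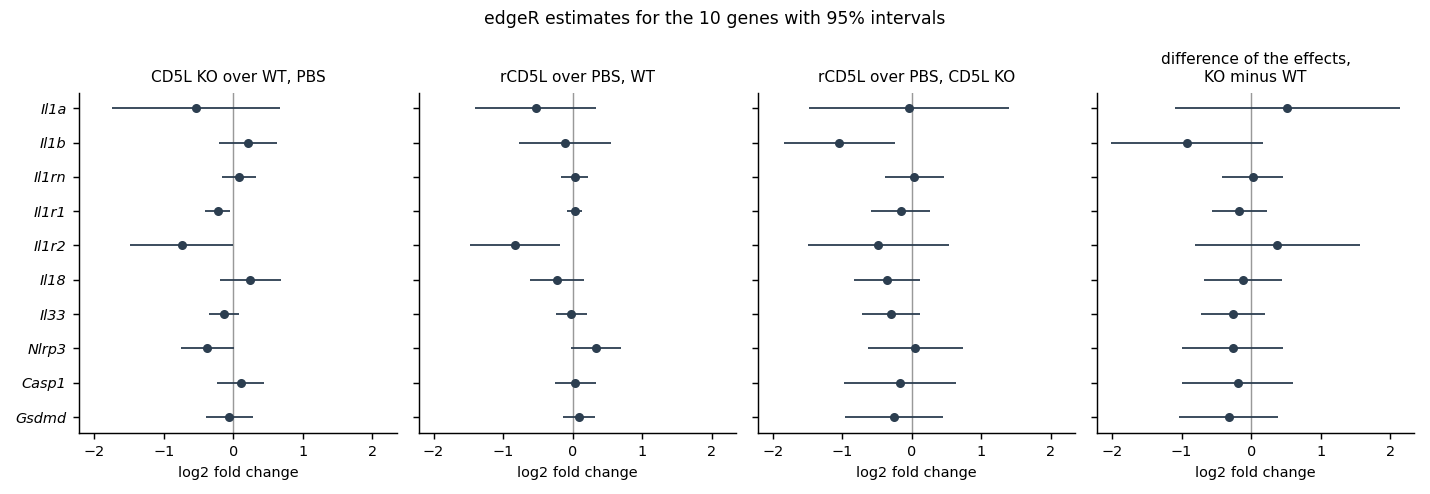
Each point is the log2 fold change of a gene fitted by edgeR, and the line is its 95% interval. The panels show CD5L KO over WT (both given PBS), rCD5L over PBS in WT, rCD5L over PBS in CD5L KO, and the difference of the rCD5L effects (CD5L KO minus WT). The intervals that exclude 0 are those of Il1r1 and Il1r2 in the first panel, Il1r2 in the second and Il1b in the third, and no adjusted p was under 0.05.

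Il1b (ENSMUSG00000027398, chr2:129364570-129371139, minus strand, GRCm38) encodes IL-1β, the secreted ligand that inflammasomes mature. In WT PBS kidneys 1 to 5 its level was 21.8, 24.2, 21.0, 22.7 and 16.5 CPM. The level in CD5L KO PBS kidneys 1 to 4 was 26.9, 29.8, 28.9 and 13.3 CPM. Of these, 3 lay above every WT PBS kidney and kidney 4 lay below every one, so the groups overlapped. The log2 fold change of CD5L KO over WT was 0.21 (SE 0.194, 95% interval -0.21 to 0.63, edgeR adjusted p = 0.531). With a kidney left out it ran from 0.11 without CD5L KO PBS kidney 2 (edgeR adjusted p = 0.803) to 0.42 without CD5L KO PBS kidney 4 (edgeR adjusted p = 0.0410), and the latter was the only setting in which any of the 10 genes was called. It was also 0.14 without CD5L KO PBS kidney 3 and 0.13 without WT PBS kidney 5.

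After rCD5L, CD5L KO kidneys 1 to 5 had 13.9, 18.4, 6.34, 6.20 and 15.0 CPM of Il1b. All 5 lay below 3 of the 4 CD5L KO PBS kidneys, while PBS kidney 4 lay within their range. The mean was 12.0 ± 5.45 CPM (SD, n = 5) with rCD5L and 24.7 ± 7.72 CPM (SD, n = 4) with PBS, and the log2 fold change of -1.04 was the largest in size among the 10 genes in any comparison (SE 0.360, 95% interval -1.84 to -0.25, unadjusted p = 0.0151 and adjusted p = 0.897 in edgeR). Without CD5L KO rCD5L kidney 4 it was -0.88 (edgeR adjusted p = 0.763), and over all kidneys left out in turn it ranged from -1.26 to -0.88. Kidney 3, at 6.34 CPM, was about as low as kidney 4, and without both the estimate was -0.65 (edgeR adjusted p = 0.433), in a fit added after the data were seen. The estimate for Il1b kept its sign in these fits but was smaller without both kidneys, and no gene of the table passed the adjusted threshold in this comparison.

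WT rCD5L kidneys 1 to 5 had 8.82, 14.0, 17.9, 42.6 and 14.6 CPM of Il1b. Kidney 4 was the highest of all 19 kidneys, and 3 of the other 4 lay below every WT PBS kidney. The log2 fold change over PBS was -0.11 (SE 0.308, 95% interval -0.77 to 0.54, edgeR adjusted p = 0.897), and with a kidney left out it ran from -0.61 without WT rCD5L kidney 4 (edgeR adjusted p = 0.225) to 0.07 without WT rCD5L kidney 1. The rCD5L effect in CD5L KO minus that in WT was -0.92 on the log2 scale (SE 0.522, 95% interval -2.01 to 0.18, edgeR adjusted p = 0.731), -0.77 without CD5L KO rCD5L kidney 4 and -0.42 without WT rCD5L kidney 4, so a difference between genotypes was not detectable with these kidneys. In the same WT rCD5L kidney 4, Il18 was also the highest of its group, at 3.76 CPM. The antisense gene Il1bos overlaps Il1b and had at most 15 counts in any library, and how the counting treated strand is not given in the sources used here.

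**Figure D2:**
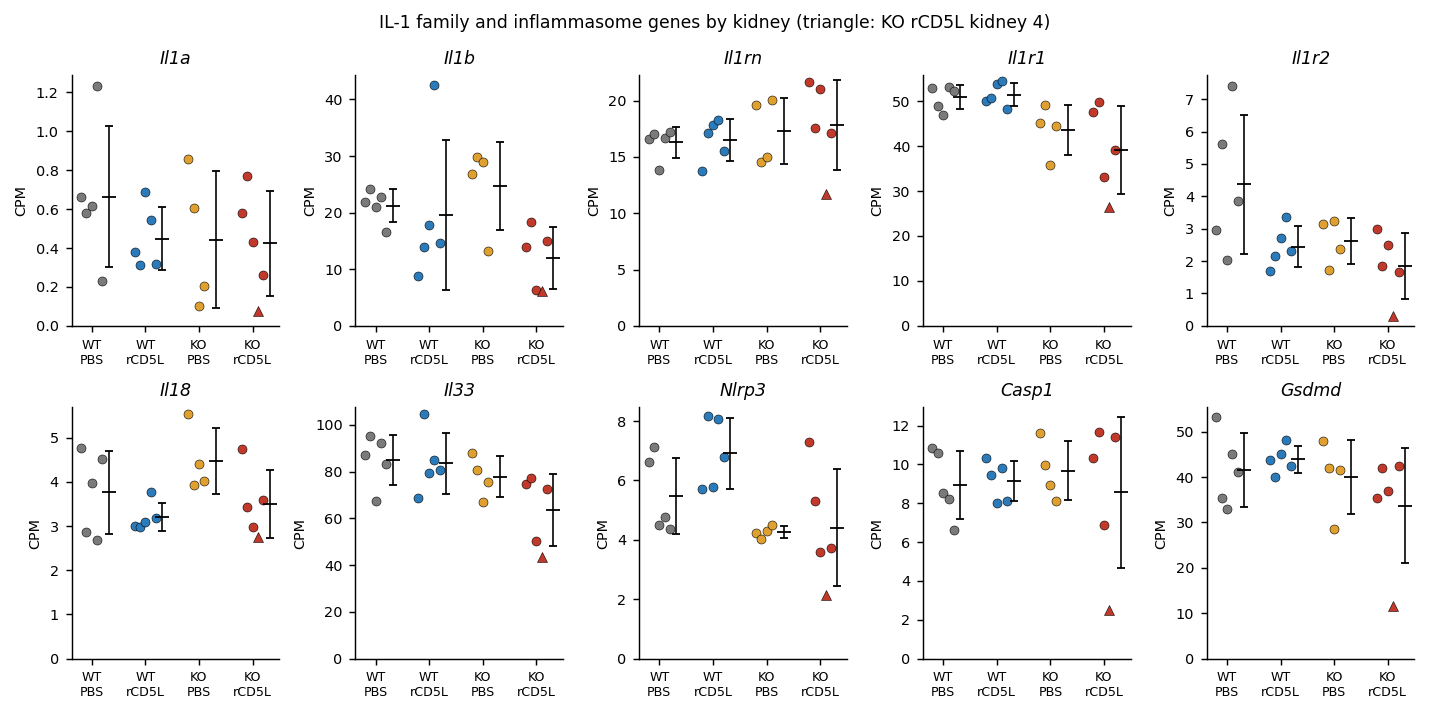
Each point is the CPM of a gene in a single kidney, with the group mean and SD beside it, for the 4 groups, and each axis starts at 0. The triangle marks CD5L KO rCD5L kidney 4, which was the lowest of all 19 kidneys for 9 of the 10 genes, and the highest Il1b point is WT rCD5L kidney 4 at 42.6 CPM.

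Il1a (ENSMUSG00000027399, chr2:129299610-129309972) encodes IL-1α, which is active as a precursor and released by damaged cells. It was barely counted, with 1 to 23 counts per library and a median of 0.230 FPKM, the lowest per-length level of the 10 genes. Il1a was at 0.663, 0.582, 0.614, 1.23 and 0.230 CPM in WT PBS kidneys 1 to 5, and CD5L KO PBS kidneys 1 to 4 had 0.857, 0.606, 0.101 and 0.207 CPM. With rCD5L, WT kidneys had 0.314 to 0.687 CPM (median 0.382) and CD5L KO kidneys 0.0766 to 0.773 CPM (median 0.433). The ranges of all groups overlapped, and the widest interval, for the difference of the rCD5L effects, ran from -1.10 to 2.14 on the log2 scale, around an estimate of 0.52 that was 0.72 without CD5L KO rCD5L kidney 4. For rCD5L in CD5L KO the estimate was -0.04, and 0.18 without that kidney. With a kidney left out the estimate for CD5L KO over WT, -0.54, ran from -1.06 to -0.21 and that for rCD5L in WT, -0.53, from -0.75 to -0.21. A difference of Il1a within this interval was not detectable with these kidneys and counts. The predicted gene Gm14023 overlaps it on the opposite strand with at most 23 counts.

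Il1rn (ENSMUSG00000026981, chr2:24336853-24351494, plus strand) encodes the IL-1 receptor antagonist, which occupies IL-1R1 without signalling. Its level was 16.6, 17.01, 13.8, 16.7 and 17.2 CPM in WT PBS kidneys 1 to 5, and WT rCD5L kidneys 1 to 5 had 13.8, 17.2, 17.9, 18.3 and 15.5 CPM. For CD5L KO PBS kidneys 1 to 4 the values were 19.6, 14.6, 15.0 and 20.04 CPM, and CD5L KO rCD5L kidneys 1 to 5 had 21.7, 17.6, 21.1, 11.7 and 17.1 CPM. The 4 groups overlapped, with means between 16.3 and 17.8 CPM. The log2 fold changes were 0.08 for CD5L KO over WT (95% interval -0.17 to 0.33), 0.03 for rCD5L in CD5L KO (95% interval -0.39 to 0.46) and 0.03 for rCD5L in WT (95% interval -0.17 to 0.23), with edgeR adjusted p-values of 0.705, 0.983 and 0.910. Without CD5L KO rCD5L kidney 4 the estimate in CD5L KO was 0.16 (edgeR adjusted p = 0.787). That for CD5L KO over WT ran from 0.01 without CD5L KO PBS kidney 4 to 0.16 without CD5L KO PBS kidney 2. The group means of Il1rn thus lay closer together than those of Il1b, which ran from 12.0 to 24.7 CPM.

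The ratio of Il1rn to Il1b, each in FPKM and thus per length, was computed for each kidney as a description without a test. In WT PBS kidneys 1 to 5 it was 0.262, 0.242, 0.227, 0.253 and 0.359, and in WT rCD5L kidneys 1 to 5 it was 0.538, 0.422, 0.344, 0.148 and 0.366. In CD5L KO PBS kidneys 1 to 4 it was 0.251, 0.169, 0.179 and 0.520, and in CD5L KO rCD5L kidneys 1 to 5 it was 0.539, 0.330, 1.14, 0.651 and 0.392. In FPKM, antagonist RNA was below Il1b RNA in every kidney except CD5L KO rCD5L kidney 3. This order rests on the gene lengths used, 5535 bases for Il1rn and 1907 bases for Il1b. In CPM, which are not per length, Il1rn was above Il1b in some kidneys and below it in others. The median ratio was 0.539 in CD5L KO rCD5L against 0.215 in CD5L KO PBS kidneys, and 0.366 against 0.253 in the WT groups, and both pairs of groups overlapped.

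**Figure D3:**
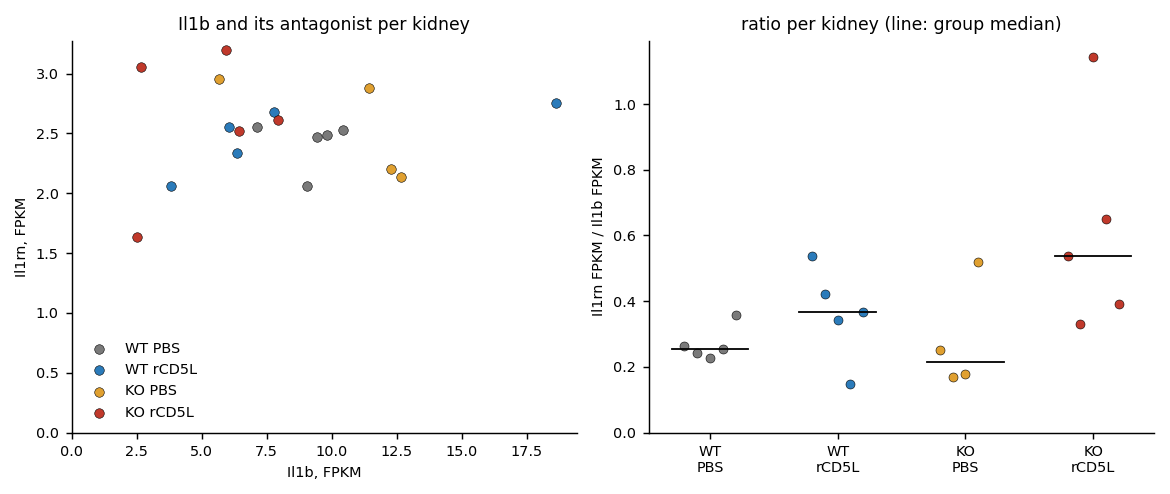
The left panel plots Il1rn against Il1b in FPKM for each of the 19 kidneys, and the right panel plots the ratio of Il1rn to Il1b by group with the group median as a line. Il1rn stays between 1.64 and 3.197 FPKM while Il1b runs from 2.52 to 18.6 FPKM, so the spread of the ratio is mostly that of Il1b.

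Il1r1 (ENSMUSG00000026072, chr1:40225080-40317257) encodes the signalling receptor for IL-1α and IL-1β. The receptor was at 52.8, 49.0, 47.0, 53.1 and 52.3 CPM in WT PBS kidneys 1 to 5, and CD5L KO PBS kidneys 1 to 4 had 45.0, 49.2, 35.8 and 44.4 CPM. All but CD5L KO PBS kidney 2 lay below the WT PBS range. CD5L KO over WT gave a log2 fold change of -0.23 (SE 0.0844, 95% interval -0.41 to -0.04, unadjusted p = 0.0188 and adjusted p = 0.106 in edgeR), against a median of all genes of -0.00. Without CD5L KO PBS kidney 3 it was -0.14 (edgeR adjusted p = 0.214), and -0.29 without kidney 2 of that group. Some lists of cell markers moved the same way. The sum of 8 fibroblast and myofibroblast markers was 1863 CPM (median, range 1538 to 2179) in CD5L KO PBS and 2449 CPM (range 2012 to 2933) in WT PBS kidneys. That of 6 endothelial markers was 494 CPM (range 480.2 to 557) and 611 CPM (range 571 to 651). By gene, 6 of 8 and 6 of 6 of these had estimates below 0. Other lists did not move this way: 6 of 6 urothelium markers were above 0 (median log2 fold change 0.76). The macrophage markers were split, with 6 below 0 and 4 above. In whole kidney RNA, fewer cells of a type and less RNA per cell cannot be told apart, and the part of these cells in the Il1r1 value was not tested.

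With rCD5L, WT kidneys 1 to 5 had 50.1, 50.7, 53.9, 54.5 and 48.3 CPM of Il1r1, of which 2 lay above the WT PBS range and none below it. There the log2 fold change was 0.03 (SE 0.0535, 95% interval -0.09 to 0.14, edgeR adjusted p = 0.850), the narrowest interval of the 10 genes. CD5L KO rCD5L kidneys 1 to 5 had 47.6, 49.7, 33.1, 26.3 and 39.0 CPM, and kidneys 3 and 4 lay below every CD5L KO PBS kidney. The log2 fold change over PBS was -0.16 (95% interval -0.59 to 0.26, edgeR adjusted p = 0.911), and -0.04 without kidney 4.

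Il1r2 (ENSMUSG00000026073, chr1:40074079-40125231) encodes the decoy receptor, which binds IL-1 and lacks a signalling domain, and is typical of neutrophils. Il1r2 was at 2.96, 5.61, 2.03, 7.41 and 3.87 CPM in WT PBS kidneys 1 to 5, and WT rCD5L kidneys 1 to 5 had 1.70, 2.14, 2.70, 3.37 and 2.30 CPM. The groups overlapped, with WT PBS kidney 4 the highest of all 19. For rCD5L over PBS in WT the log2 fold change was -0.83 (SE 0.304, 95% interval -1.48 to -0.18, unadjusted p = 0.0165 and adjusted p = 0.203 in edgeR). Leaving out each kidney in turn gave -1.01 to -0.56.

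CD5L KO PBS kidneys 1 to 4 had 3.16, 1.73, 3.24 and 2.38 CPM of Il1r2, and the log2 fold change over WT PBS was -0.74 (SE 0.342, 95% interval -1.48 to -0.00, unadjusted p = 0.04996 and adjusted p = 0.188 in edgeR). CD5L KO rCD5L kidneys 1 to 5 had 2.996, 1.85, 2.50, 0.306 and 1.66 CPM, with 4 counts in kidney 4, and the log2 fold change over PBS was -0.48 (edgeR adjusted p = 0.897), or -0.22 without kidney 4. Both WT comparisons for Il1r2 share the WT PBS kidneys, and their summed 10 neutrophil markers were 31.1, 46.0, 23.3, 71.4 and 28.3 CPM in kidneys 1 to 5, against 9.19 to 34.9 CPM in the kidneys of the other groups. Kidneys 4 and 2 were the highest and second highest of all 19 both in this sum and in Il1r2. Without WT PBS kidney 4 the estimates were -0.48 for CD5L KO over WT and -0.56 for rCD5L in WT. The part of neutrophils in these values was not tested.

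Il18 (ENSMUSG00000039217, chr9:50554827-50581840) encodes IL-18, the other cytokine that caspase-1 matures, made by epithelium as well as by macrophages. Its level was 5.55, 3.94, 4.40 and 4.03 CPM in CD5L KO PBS kidneys 1 to 4, and CD5L KO rCD5L kidneys 1 to 5 had 4.74, 3.43, 2.98, 2.76 and 3.59 CPM. With rCD5L, 4 of 5 kidneys lay below every PBS kidney, and kidney 1 lay among them. rCD5L over PBS gave a log2 fold change of -0.36 (SE 0.215, 95% interval -0.84 to 0.12, unadjusted p = 0.123 and adjusted p = 0.897 in edgeR), and -0.28 without kidney 4. WT PBS kidneys 1 to 5 had 4.78, 2.87, 3.97, 2.68 and 4.51 CPM, and WT rCD5L kidneys 1 to 5 had 3.01, 2.98, 3.09, 3.76 and 3.18 CPM, a range that lay inside that of WT PBS. The estimate for rCD5L in WT was -0.22 (edgeR adjusted p = 0.583) and that for CD5L KO over WT was 0.24 (edgeR adjusted p = 0.485). The former was -0.13 without WT PBS kidney 1, and the latter was 0.12 without CD5L KO PBS kidney 1, 0.16 without WT PBS kidney 2 and 0.15 without WT PBS kidney 4. Bco2 and Tex12 overlap Il18 on the opposite strand, with up to 222 counts in a library, so Il18 counts could hold reads of theirs if strand was not used.

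Il33 (ENSMUSG00000024810, chr19:29925114-29960718) encodes IL-33, a nuclear alarmin of stromal, endothelial and epithelial cells. It had the highest per-length level of the 10 genes, with a median of 22.7 FPKM over the 19 kidneys, followed by Gsdmd at 14.3 FPKM and Il1b at 7.80 FPKM. WT PBS kidneys 1 to 5 had 87.1, 95.3, 67.5, 92.1 and 83.5 CPM, and WT rCD5L kidneys 1 to 5 had 68.9, 104.5, 79.4, 85.0 and 80.6 CPM. Il33 was at 87.8, 80.7, 67.0 and 75.7 CPM in CD5L KO PBS kidneys 1 to 4, and CD5L KO rCD5L kidneys 1 to 5 had 74.7, 77.1, 50.2, 43.7 and 72.4 CPM, where kidneys 3 and 4 were the lowest of all 19. The log2 fold changes were -0.14 for CD5L KO over WT, -0.30 for rCD5L in CD5L KO and -0.02 for rCD5L in WT, with edgeR adjusted p-values of 0.428, 0.897 and 0.957. Without kidney 4 the estimate in CD5L KO was -0.18. That for CD5L KO over WT ran from -0.21 without WT PBS kidney 3 to -0.07 without CD5L KO PBS kidney 3.

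Nlrp3 (ENSMUSG00000032691, chr11:59541568-59566956) encodes the sensor that nucleates the inflammasome. CD5L KO PBS kidneys 1 to 4 had 4.24, 4.02, 4.30 and 4.49 CPM, and WT PBS kidneys 1 to 5 had 6.63, 7.11, 4.49, 4.78 and 4.37 CPM. WT rCD5L kidneys 1 to 5 had 5.73, 8.16, 5.79, 8.07 and 6.79 CPM. The lowest WT rCD5L kidney lay above 3 of 5 WT PBS kidneys and above every CD5L KO PBS kidney. The log2 fold change of CD5L KO over WT with PBS was -0.37 (SE 0.176, 95% interval -0.75 to 0.01, edgeR adjusted p = 0.199) and that of rCD5L in WT was 0.34 (SE 0.169, 95% interval -0.03 to 0.70, edgeR adjusted p = 0.353). These 2 estimates share the WT PBS kidneys. CD5L KO rCD5L kidneys 1 to 5 had 7.29, 5.32, 3.60, 2.14 and 3.72 CPM, so that 2 lay above and 3 below all CD5L KO PBS kidneys. The log2 fold change was 0.05 (95% interval -0.63 to 0.73, edgeR adjusted p = 0.985), and 0.22 without kidney 4, and it was -0.00 on log2(FPKM + 1) and -0.06 on log2(FPKM + 0.1).

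Casp1 (ENSMUSG00000025888, chr9:5298517-5307265) encodes caspase-1, the protease of the inflammasome. The values in WT PBS kidneys 1 to 5 were 10.8, 10.6, 8.51, 8.21 and 6.63 CPM, and WT rCD5L kidneys 1 to 5 had 10.3, 9.47, 8.03, 9.80 and 8.14 CPM. Casp1 was at 11.6, 9.99, 8.95 and 8.11 CPM in CD5L KO PBS kidneys 1 to 4, and CD5L KO rCD5L kidneys 1 to 5 had 10.3, 11.7, 6.87, 2.53 and 11.4 CPM. Apart from kidney 4 of the last group, all kidneys lay between 6.63 and 11.7 CPM. The log2 fold changes were 0.10 for CD5L KO over WT, -0.17 for rCD5L in CD5L KO and 0.04 for rCD5L in WT, with edgeR adjusted p-values of 0.724, 0.948 and 0.922. Without kidney 4 the estimate in CD5L KO was 0.06. That for CD5L KO over WT ran from 0.003 without CD5L KO PBS kidney 1 to 0.19 without CD5L KO PBS kidney 4.

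Gsdmd (ENSMUSG00000022575, chr15:75862327-75867408) encodes gasdermin D, which forms the pore through which IL-1β leaves the cell. WT PBS kidneys 1 to 5 had 53.3, 35.4, 33.0, 45.2 and 41.1 CPM, and WT rCD5L kidneys 1 to 5 had 43.8, 40.0, 45.0, 48.1 and 42.5 CPM. CD5L KO PBS kidneys 1 to 4 had 48.0, 42.0, 28.6 and 41.5 CPM, and CD5L KO rCD5L kidneys 1 to 5 had 35.3, 42.0, 36.9, 11.6 and 42.4 CPM. The log2 fold changes were -0.06 for CD5L KO over WT, -0.25 for rCD5L in CD5L KO and 0.09 for rCD5L in WT, with edgeR adjusted p-values of 0.845, 0.915 and 0.741. Without kidney 4 the estimate in CD5L KO was -0.03. That for rCD5L in WT ran from 0.02 without WT PBS kidney 3 to 0.19 without WT PBS kidney 1.

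In CD5L KO rCD5L kidney 4, Il18 was the exception among the 10 genes, at 75.0% of the median of the other 18 kidneys. The other 9 genes were at their lowest of all 19 kidneys there. Il1r2 was at 11.8% of the median of the others, Il1a at 13.6%, Casp1 at 26.2%, Gsdmd at 27.7% and Il1b at 34.2%, while Il1rn stood at 68.4%. All 10 macrophage markers were counted in that library, with the sum of 771 CPM given above. Other marker sums were also at their lowest of all 19 kidneys there. These were neutrophil (9.19 CPM), lymphocyte (10.6 CPM), fibroblast and myofibroblast (842 CPM) and urothelium markers (110 CPM). The endothelial sum (498 CPM) lay within the range of the other kidneys. The sums of proximal tubule markers and of loop, distal tubule and collecting duct markers (5957 CPM) were the highest of all. The part of cell content in these values was not tested.

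**Figure D4:**
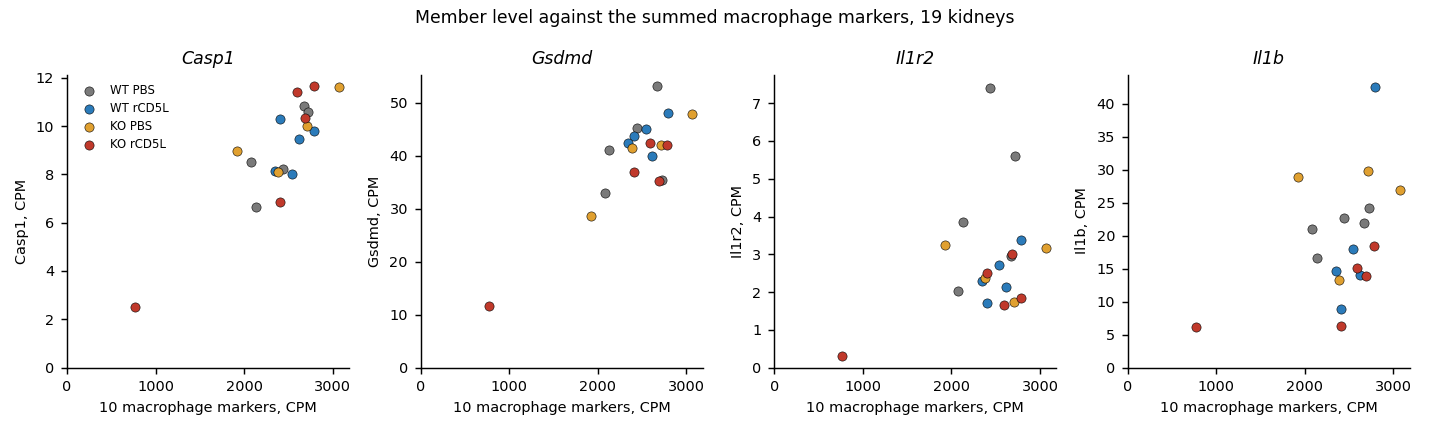
Each point is a kidney, with the summed CPM of 10 macrophage markers on the x axis and the CPM of Casp1, Gsdmd, Il1r2 or Il1b on the y axis, coloured by group. CD5L KO rCD5L kidney 4, at 771 CPM of macrophage markers, lies at the lower left of all panels, while the other 18 kidneys lie between 1923 and 3070 CPM.

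The other genes of the pathway were read from lists of 14 IL-1 family ligands and receptors, 23 inflammasome and pyroptosis genes, 16 signalling genes and 18 IL-1 and NF-κB target genes. In CD5L KO against WT mice given PBS, 7 of the 64 that passed the filter were called, where 10.5% of all genes were. Of these 7, 3 were higher and 4 lower, where 5.13% of all genes were called higher and 5.40% lower. Among the other inflammasome genes, 2 of 22 tested rose and 1 fell. Pycard, the adaptor ASC that joins NLRP3 to caspase-1, was at 32.6 ± 1.76 CPM (SD, n = 4) in CD5L KO and 25.0 ± 2.42 CPM (SD, n = 5) in WT kidneys, without overlap (log2 fold change 0.38, SE 0.0790, edgeR adjusted p = 0.0124). Ninj1, which ruptures the membrane of dying cells, was at 129 ± 7.61 and 109 ± 4.87 CPM, also without overlap (log2 fold change 0.24, edgeR adjusted p = 0.0186). P2rx7, the ATP-gated channel that triggers NLRP3, was lower at 21.5 ± 4.05 against 29.7 ± 3.84 CPM (log2 fold change -0.47, edgeR adjusted p = 0.0338), with overlapping groups.

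Of the 16 signalling genes, 2 were called lower and none higher, where 5.40% of all genes were called lower and 5.13% higher. Traf6, the ubiquitin ligase downstream of the IRAK kinases, was at 34.8 ± 3.26 against 43.4 ± 1.32 CPM (log2 fold change -0.33, edgeR adjusted p = 0.0112), and Ikbkb, a kinase that releases NF-κB, was at 103 ± 7.03 against 122 ± 5.88 CPM (log2 fold change -0.25, edgeR adjusted p = 0.0241), both without overlap. Irak3, a brake on IRAK signalling, was at 13.2 ± 1.15 against 15.9 ± 1.22 CPM without overlap (log2 fold change -0.28, edgeR adjusted p = 0.0707). Of the 18 target genes, 1 was called higher and 1 lower, beside the same shares of all genes. Ccl2, the monocyte-attracting chemokine, was at 47.5 ± 6.31 against 29.7 ± 3.68 CPM (log2 fold change 0.67, SE 0.108, edgeR adjusted p = 0.00566), and Nfkbiz, an NF-κB cofactor, was at 76.2 ± 8.76 against 91.4 ± 3.18 CPM (log2 fold change -0.27, edgeR adjusted p = 0.0382), both without overlap. Ptgs2, the inducible cyclooxygenase, was at 5.38 ± 1.41 against 8.67 ± 2.51 CPM with overlap (log2 fold change -0.69, edgeR adjusted p = 0.0746). DESeq2 called 10 of the 60 list genes with an adjusted p, against 17.8% of all genes: the 7 above and, lower, Ptgs2, Irak3 and Txnip (adjusted p = 0.0193, 0.0461 and 0.0353). Ptgs2 also passed without the filter on low counts and without WT PBS kidney 1 (edgeR adjusted p = 0.0495 and 0.0482). Gbp2, an interferon-induced GTPase, had a log2 fold change of 0.31 (edgeR adjusted p = 0.549). Of 8 further family ligands and receptors tested, none was called, and Il1rl1, the IL-33 receptor, had non-overlapping groups (8.95 ± 0.607 against 7.22 ± 0.844 CPM, edgeR adjusted p = 0.123). Il36a and Il18bp had log2 fold changes of 0.28 and 0.24 (edgeR adjusted p = 0.268 and 0.456). Over the 4 lists, 9 of 64 genes had groups that did not overlap where 14.1% of all genes did. Pycard, Ninj1, Ccl2 and Traf6 were called whichever kidney was left out, with a highest edgeR adjusted p of 0.0496 for Ninj1, whereas Nfkbiz was called in 1, P2rx7 in 3 and Ikbkb in 4 of the 9 fits that left out a kidney. A gene length offset ended the calls of Ninj1, P2rx7, Ikbkb and Nfkbiz, and all 7 calls were lost when the 19 kidneys shared a single estimate of the spread. The summed macrophage markers had a median of 2547 CPM in CD5L KO PBS and 2442 CPM in WT PBS kidneys, a sum in which Lyz2 weighed most (group means 1167 and 962 CPM). By gene, 6 of the 10 macrophage markers had estimates below 0 (median log2 fold change -0.06), with Csf1r called lower (-0.47, edgeR adjusted p = 0.0386) and Cd14 called higher (0.23, edgeR adjusted p = 0.0309). The summed urothelium markers had medians of 279 and 226 CPM. All 6 of them had estimates above 0 (median log2 fold change 0.76), and none was called. Of the neutrophil markers, 6 of 7 tested were below 0 (median -0.24), and none was called. Of the 8 fibroblast and myofibroblast markers, 4 were called lower (median log2 fold change -0.36), where 5.40% of all genes were. Of the 6 endothelial markers, 2 were called lower (median -0.28) and all were below 0, where 50.7% of all genes were below 0. The part of these cells in the pathway values was not tested.

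**Figure D5:**
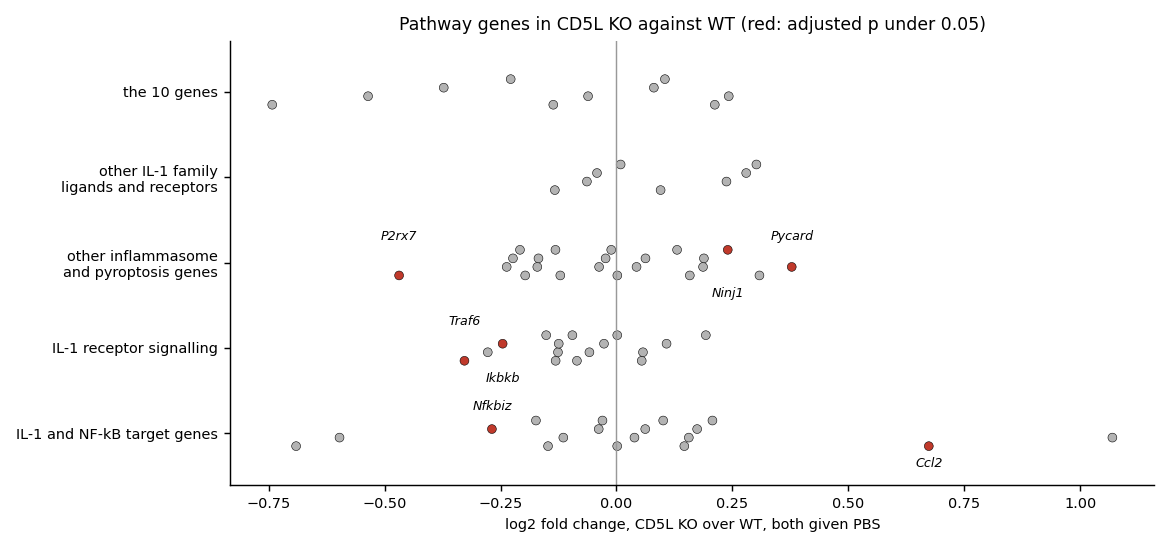
Each point is a gene that passed the filter, placed by its log2 fold change of CD5L KO over WT (both given PBS) and by list, with red for an adjusted p under 0.05. The 10 genes of the first line are all grey, between -0.74 and 0.24, and the red points are Pycard, Ninj1 and Ccl2 on the right and P2rx7, Traf6, Ikbkb and Nfkbiz on the left.

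With rCD5L no gene of the 4 lists was called, in either genotype or in the interaction (edgeR, 0% of all genes called in each). For rCD5L in WT mice DESeq2 called 4 of 56 list genes, where it called 3.82% of all genes. These were Sigirr, Nlrp6, Gsdme and Ninj1, all lower (adjusted p = 0.0337, 0.0218, 0.0387 and 0.0242). In CD5L KO mice the IL-18 receptor chain gene Il18rap had non-overlapping groups, at 6.86 ± 2.49 CPM (SD, n = 5) with rCD5L and 10.8 ± 0.890 CPM (SD, n = 4) with PBS (log2 fold change -0.65, and -0.47 without kidney 4, edgeR adjusted p = 0.897 and 0.763). It was the only 1 of 63 without overlap, where 2.35% of all genes did not overlap. The inflammasome genes with the largest estimates were Aim2, a DNA sensor (-0.64, and -0.39 without kidney 4), Nlrp6, an epithelial sensor (0.63, and -0.05 without it), and Casp4, the mouse caspase-11 (-0.56, and -0.37 without it). Among the signalling genes they were Chuk (0.24, and -0.10 without kidney 4), Irak3 (-0.21 and 0.01) and Rela (0.19 and 0.34). Among the targets they were Ccl20 (0.66, and 0.51 without kidney 4), Saa3 (0.59 and 0.77) and Cxcl2 (-0.47 and -0.26), and among the receptors, beside Il18rap, Sigirr (0.43 and 0.16) and Il18r1 (-0.33 and -0.07). The median log2 fold change of the target genes was -0.26 in CD5L KO mice, with 12 of 17 tested below 0 where 46.5% of all genes were, and it was -0.08 without kidney 4, with 12 of 17 below 0 where 49.0% of all genes were. In WT mice it was 0.06. In the same CD5L KO comparison the median was -0.15 for the macrophage markers (8 of 10 below 0; 0.05 without kidney 4), -0.46 for the urothelium markers (6 of 6 below 0; -0.42 without kidney 4), 1.36 for the proximal tubule markers (10 of 10 above 0; 0.07 without kidney 4) and 1.35 for the epididymis markers (5 of 5 above 0; 1.39 without kidney 4). No marker passed the test, and their part in the target gene values was not tested. Pycard, higher in CD5L KO than in WT mice with PBS, was at 25.4 ± 6.63 CPM with rCD5L in CD5L KO mice (log2 fold change over PBS -0.36, and -0.22 without kidney 4, edgeR adjusted p = 0.897 and 0.763), and these comparisons share the CD5L KO PBS kidneys. In WT mice Il1rl1 was at 9.16 ± 0.674 CPM with rCD5L (log2 fold change 0.35, edgeR adjusted p = 0.144) and Sigirr, an inhibitory receptor of the family, at 44.1 ± 1.52 against 50.9 ± 2.91 CPM (log2 fold change -0.20, edgeR adjusted p = 0.119), both without overlap. In all, 5 of 63 genes of the lists had groups that did not overlap, where 3.60% of all genes did not. The others were Tnf, at 4.11 ± 0.529 against 2.85 ± 0.0872 CPM (log2 fold change 0.53, edgeR adjusted p = 0.119), Nlrp6 (-0.37, edgeR adjusted p = 0.121) and Ninj1 (-0.18, edgeR adjusted p = 0.121). No cell marker passed the test in the same comparison. Of the neutrophil markers 6 of 7 were below 0 (median log2 fold change -0.61), and of the epididymis markers 5 of 5 were above 0 (median 0.80). Of the urothelium markers 6 of 6 were below 0 (median -0.19). In addition, 10 of 10 proximal tubule markers were below 0 (median log2 fold change -0.48), 5 of 6 endothelial markers were below 0 (median -0.17) and 7 of 7 lymphocyte markers were above 0 (median 0.35), and their part in these values was not tested. Further genes with large estimates for their list were Ptgs2 (-0.38), Ccl2 (0.32), Irak3 (0.19), Nfkb1 (0.15), Tab2 (0.11), Il18bp (0.22), Gbp2 (0.35) and Gsdme (-0.28), with edgeR adjusted p-values of 0.129 to 0.481. Among list genes above the expression minimum (mean log2 CPM 1), the largest interaction estimate was that of Nlrp6, at 1.02, and it was 0.32 without CD5L KO rCD5L kidney 4 (edgeR adjusted p = 0.731 and 0.853).

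Which genes varied most like each of the 10 was read from Pearson correlations of log2 CPM over the kidneys after subtracting each group's mean, among 14323 expressed genes, as a description. Over all 19 kidneys the gene most like Il1b was Rgs16 (0.816), that most like Il1r2 was Basp1 (0.940), that most like Casp1 was Fyb (0.981) and that most like Gsdmd was Rasa4 (0.969). The genes most like Il1b over 18 kidneys (without CD5L KO rCD5L kidney 4) were Rgs16 (0.893) and F730043M19Rik (0.847). Those most like Il1r2 were Mmp9 (0.860), Basp1 (0.856) and S100a8 (0.844), of which Mmp9 and S100a8 are also among the neutrophil markers. Those most like Casp1 were Fyb (0.926), Tlr1 (0.914) and Apobec1 (0.912), and the most like Gsdmd was Nlrc5 (0.892). Among the 10 genes themselves, Casp1 and Gsdmd had a correlation of 0.840 over 19 kidneys and 0.315 without CD5L KO rCD5L kidney 4, and Il1b and Il1rn had 0.226 and -0.04. The kidneys share library depth and tissue composition as sources of such values, and the best of many genes is high by choice.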

How the data were processed

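RNA from 19 whole obstructed kidneys was sequenced by the authors as paired reads of libraries made with random hexamers. Per the labels and the study's methods, reads were trimmed with Trimmomatic, aligned to GRCm38/mm10 with HISAT2 and counted per gene with featureCounts; versions, strand setting and treatment of multi-mapped reads are not given in the sources used here. The authors deposited raw counts per gene and FPKM (counts divided by gene length and library size). FPKM served to compare levels between genes and as an alternative test.

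Counts were tested with edgeR 4.0.16 (R 4.3.3): TMM scaling, filterByExpr with a minimum count of 10, quasi-likelihood F-tests, Benjamini-Hochberg adjustment over all genes tested and a threshold of 0.05. Each comparison was fitted on its 2 groups, and the interaction on all 4. The tests were first tried on simulated data. Alternatives were DESeq2 1.42.0, limma 3.58.1 on log2(FPKM + 1) and log2(FPKM + 0.1), other filters and size factors, a gene length offset, a replicate block, all kidneys in 1 fit, leaving out each kidney, and, chosen after seeing the data, leaving out 2 kidneys. No columns lacked a sample. All 36 pairs of libraries within a group differed by more than sampling noise (chi-square per degree of freedom of at least 7.07). Intervals cover these kidneys only.

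The 10 genes and all lists were chosen with earlier results of these data known. All 10 are named; from the 4 pathway lists, genes were named in the 3 comparisons of 2 groups when called or when among the 3 of a list with the largest change at a mean log2 CPM of at least 1. The rule also covered the interaction and the marker lists; there, fewer genes were named than it allowed, most markers being given as sums. Replicate numbers were not used to pair the kidneys in the main fits. Protein sequences were not analysed here.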

Additional observations from a re-analysis of the deposited data

Results flagged for a closer look

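In 40 tests for a sample far from the others (10 genes in 4 groups, Dixon's ratio at the 95% level), 4 kidney values stood out, where chance alone flags about 1 group in 20. Il1b in WT rCD5L kidney 4 was 42.6 CPM, against 8.82 to 17.9 CPM in the other 4 kidneys of its group. Il18 in the same kidney was 3.76 CPM, against 2.98 to 3.18 CPM in the others. Il1rn in WT PBS kidney 3 was 13.8 CPM, against 16.6 to 17.2 CPM in the others. Gsdmd in CD5L KO rCD5L kidney 4 was 11.6 CPM, against 35.3 to 42.4 CPM in the others, and this is the library that stood apart in all genes. No gene showed a difference of the rCD5L effect between genotypes past the threshold, and none had groups that separated in opposite directions in the 2 genotypes.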

How the results depend on the processing

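The count of the 10 genes past the threshold stayed at 0 in every comparison under the alternatives in which they could be tested, except that leaving out 1 kidney at a time gave 0 to 1 in CD5L KO against WT, the 1 being Il1b without CD5L KO PBS kidney 4. Over all genes, the 1850 calls of CD5L KO against WT became 12 (2 higher) with all 19 kidneys in 1 fit and ranged from 1015 to 2062 when a kidney was left out, the lowest without WT PBS kidney 4. For rCD5L in CD5L KO, DESeq2 called 3 genes instead of 0; for rCD5L in WT, DESeq2 called 508 and a fit without the filter 137 instead of 0, and leaving out a kidney gave 0 to 39, the highest without WT PBS kidney 1. DESeq2 called 2571 genes in CD5L KO against WT. With at least 10 counts required in every kidney, Il1a had no test in any comparison and Il1r2 none for rCD5L in CD5L KO and in the interaction, and Il1a for rCD5L in CD5L KO had none without CD5L KO rCD5L kidney 1 or 2. DESeq2 gave no adjusted p for Il1a in CD5L KO against WT and for Il1a, Il1r2 and Il18 for rCD5L in WT.

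Signs turned for these estimates, none of which passed the threshold. The gene length offset moved Casp1 in CD5L KO against WT to -0.000418, Il1a for rCD5L in CD5L KO to 0.00428, and for rCD5L in WT Il1r1 to -0.00775 and Il33 to 0.000493. On log2(FPKM + 1) Nlrp3 for rCD5L in CD5L KO became -0.00291 and the interaction of Il1rn -0.00591; on log2(FPKM + 0.1) Il1a became 0.00688, Nlrp3 -0.0553 and the interaction of Il1rn -0.0134. With a kidney left out, Gsdmd in CD5L KO against WT ranged from -0.160 to 0.0740. For rCD5L in CD5L KO the ranges were -0.349 to 0.481 for Il1a, -0.0445 to 0.158 for Il1rn, -0.201 to 0.224 for Nlrp3, -0.313 to 0.0573 for Casp1, -0.0838 to 0.341 for Rela, -0.103 to 0.356 for Chuk, -0.359 to 0.0121 for Irak3 and -0.0463 to 0.801 for Nlrp6. In WT they were -0.609 to 0.0731 for Il1b, -0.0224 to 0.0875 for Il1rn, -0.104 to 0.0449 for Il33 and -0.0532 to 0.112 for Casp1. In the interaction they were -0.0556 to 0.128 for Il1rn, -0.329 to 0.0211 for Casp1 and -0.0160 to 0.459 for Chuk. The cause was not tested.

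The replicate numbers were not used to pair the kidneys in the main fits. Same-numbered deviations correlated at -0.02 to 0.342 in CD5L KO against WT, 0.0520 to 0.369 for rCD5L in CD5L KO and -0.06 to -0.01 in WT. In these comparisons, 2 of 4, 2 of 4 and 0 of 5 kidneys correlated best with their own number. With so few kidneys, these values neither establish nor exclude a pairing. A fit with the replicate number as a block called 0 of the 10 genes in each comparison, called 2132 genes in CD5L KO against WT and 0 elsewhere, and moved Il1a to 0.149 and Nlrp3 to -0.0142 for rCD5L in CD5L KO. Of the 7 called pathway genes, the gene length offset kept Pycard, Traf6 and Ccl2 past the threshold and lost the other 4. In CD5L KO against WT Ptgs2 gained a call in 3 settings and Irak3 in 1, DESeq2 also called Txnip, and for rCD5L in WT DESeq2 gained Sigirr, Nlrp6, Gsdme and Ninj1.

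Leaving out both CD5L KO rCD5L kidneys 3 and 4 was chosen after seeing the data. For rCD5L in CD5L KO it turned Il1a to 0.253, Il1r1 to 0.0612, Casp1 to 0.205, Chuk to -0.0282, Irak3 to 0.0672, Sigirr to -0.0704, Il18r1 to 0.162 and Nlrp6 to -0.182, and in the interaction Il1r1 to 0.0388, Il18 to 0.0379, Nlrp3 to 0.0215 and Casp1 to 0.172, with 0 of the 10 genes called.

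Il1a had 1 to 23 counts per library, so counting error adds to the spread between kidneys in its values.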
